A study of Mus musculus with 10 samples.

Results

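The genes described here are transcription factors of the epithelial-mesenchymal transition (EMT) together with mesenchymal adhesion and cytoskeleton genes: Zeb1, Zeb2, Snai1, Snai2, Twist1, Twist2, Cdh2, Cdh11 and Vim. They were chosen by name, and all 21 probe sets that the array's annotation gives to these 9 genes were taken, of 45101 on the array. A probe set is a group of short probes that yields 1 value per array for 1 transcript. Mouse embryonic fibroblasts (MEFs), which are cells grown out of mouse embryos, were profiled on 10 Affymetrix arrays in 5 groups of 2. CDKO cells carry a conditional Dicer knockout; they were left untreated or kept for 4 days in 1 µM or 5 µM 4-Orthohydroxy Tamoxifen (OHT). Wild-type (WT) cells were left untreated or kept in 5 µM. Tamoxifen derivatives can activate a Cre recombinase fused to an estrogen receptor domain. The sources used here do not say which Cre the cells carried, what drove it, or whether a line came from 1 embryo or clone. Nor do they name separate cultures, so p-values may measure technical spread only. The titles name 4 samples WT while the description calls every sample conditional knockout, and the titles were followed.

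EMT is the change by which epithelial cells give up their junctions and become motile mesenchymal cells, as in the neural crest and in carcinomas. Zeb1, Zeb2, Snai1 and Snai2 are zinc finger repressors that bind E-box sequences at epithelial genes such as Cdh1 (E-cadherin), and Twist1 and Twist2 are basic helix-loop-helix factors of mesoderm and mesenchyme. Fibroblasts are mesenchymal from the start and commonly express such factors together with Cdh2 (N-cadherin), Cdh11 (OB-cadherin) and Vim (vimentin). Zeb1 and Zeb2 are textbook targets of the miR-200 family of microRNAs, which Dicer cuts from their precursors and which are typical of epithelial cells.

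The mature miR-200 sequences are shown because they are the known link between Dicer and the Zeb genes. The arrays read messenger RNA, and microRNA levels were not analysed here. Sequences are from RefSeq (GRCm38.p6, minus strand), written 5′ to 3′ with the seed, bases 2 to 8, in capitals.
mmu-miR-200b-3p (chr4:156055685-156055706): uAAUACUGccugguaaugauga
mmu-miR-200c-3p (chr6:124718324-124718346): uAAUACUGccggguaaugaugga
mmu-miR-429-3p (chr4:156053916-156053937): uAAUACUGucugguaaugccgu
mmu-miR-200a-3p (chr4:156054911-156054932): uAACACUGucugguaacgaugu
mmu-miR-141-3p (chr6:124717917-124717938): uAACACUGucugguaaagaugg
The family falls into a group of 3 with the seed AAUACUG and a group of 2 with the seed AACACUG.

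Values below are log2 values as the authors deposited them, and levels of different probe sets cannot be set against each other. Of the 21 probe sets, 18 reached a group mean of at least 4 and were tested by limma among 20681 probe sets. A change was called at a Benjamini-Hochberg adjusted p under 0.05 over all of them. The other 3 stayed near background in every array: Zeb1 1420243_at (2.11 to 2.36), Zeb2 1454200_at (2.46 to 2.53) and Zeb2 1458941_at (2.11 to 2.38). Each of the 9 genes had at least 1 tested probe set. The number of arrays limits the precision of every comparison.

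The CDKO replicates lay further apart than the WT replicates. The median SD over the 18 probe sets was 0.23, 0.22 and 0.18 in untreated, 1 µM and 5 µM CDKO cells, against 0.057 and 0.061 in untreated and treated WT cells. The tests pool the spread over the 5 groups, and limma draws it toward a value common to all probe sets. Their errors are therefore those of neither line. For Vim 1456292_a_at the SE of a difference between 2 groups was 0.18, above the pooled SD of CDKO (0.11) and WT cells (0.035). In the fibroblast markers CDKO 5 µM replicate 1 stood apart, with a centred median of -1.26 over 10 genes against -0.44 to 0.68 in the other arrays. The hybridisation spike-in controls formed a lower class of 4 CDKO arrays (untreated replicate 2, 1 µM replicates 1 and 2, and 5 µM replicate 2; 9.65 to 10.18) and a higher class of the other 6 arrays (10.97 to 11.72). The 18S ribosomal RNA control was 11.64 and 11.21 in untreated WT cells and 10.16 in CDKO 1 µM replicate 2, and 5.21 to 8.44 in the rest. The 3′ minus 5′ difference of the Gapdh control probe sets, a sign of RNA quality, was high in the same 3 arrays, at 0.89, 0.67 and 1.58 against -0.31 to 0.069. Dicer1 on 1460571_at was 6.33 and 5.93 in untreated CDKO cells, 6.10 and 6.55 at 1 µM and 5.90 and 5.49 at 5 µM, and the change at 5 µM was not called (-0.44 ± 0.26, SE; limma adjusted p = 0.746). In WT cells the same probe set was 7.31 and 7.16 untreated and 5.90 and 5.94 with OHT and fell (-1.32 ± 0.26, adjusted p = 0.0266), and it was lower in untreated CDKO than WT cells (-1.11 ± 0.26, 0.0481). The first call was lost without any 1 of the 4 WT arrays (0.136 to 0.178) and the second was lost in 14 of 19 alternatives, with an adjusted p of up to 0.243. On 1427941_at Dicer1 differed by -0.73 at 5 µM in CDKO cells, -1.62 in WT cells and -2.50 between the untreated lines, with an SE of 0.83, and none passed (adjusted p = 0.929, 0.233 and 0.122). Where the probes lie relative to the deleted part is not known here, so these values do not check the deletion.

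**Figure D1:**
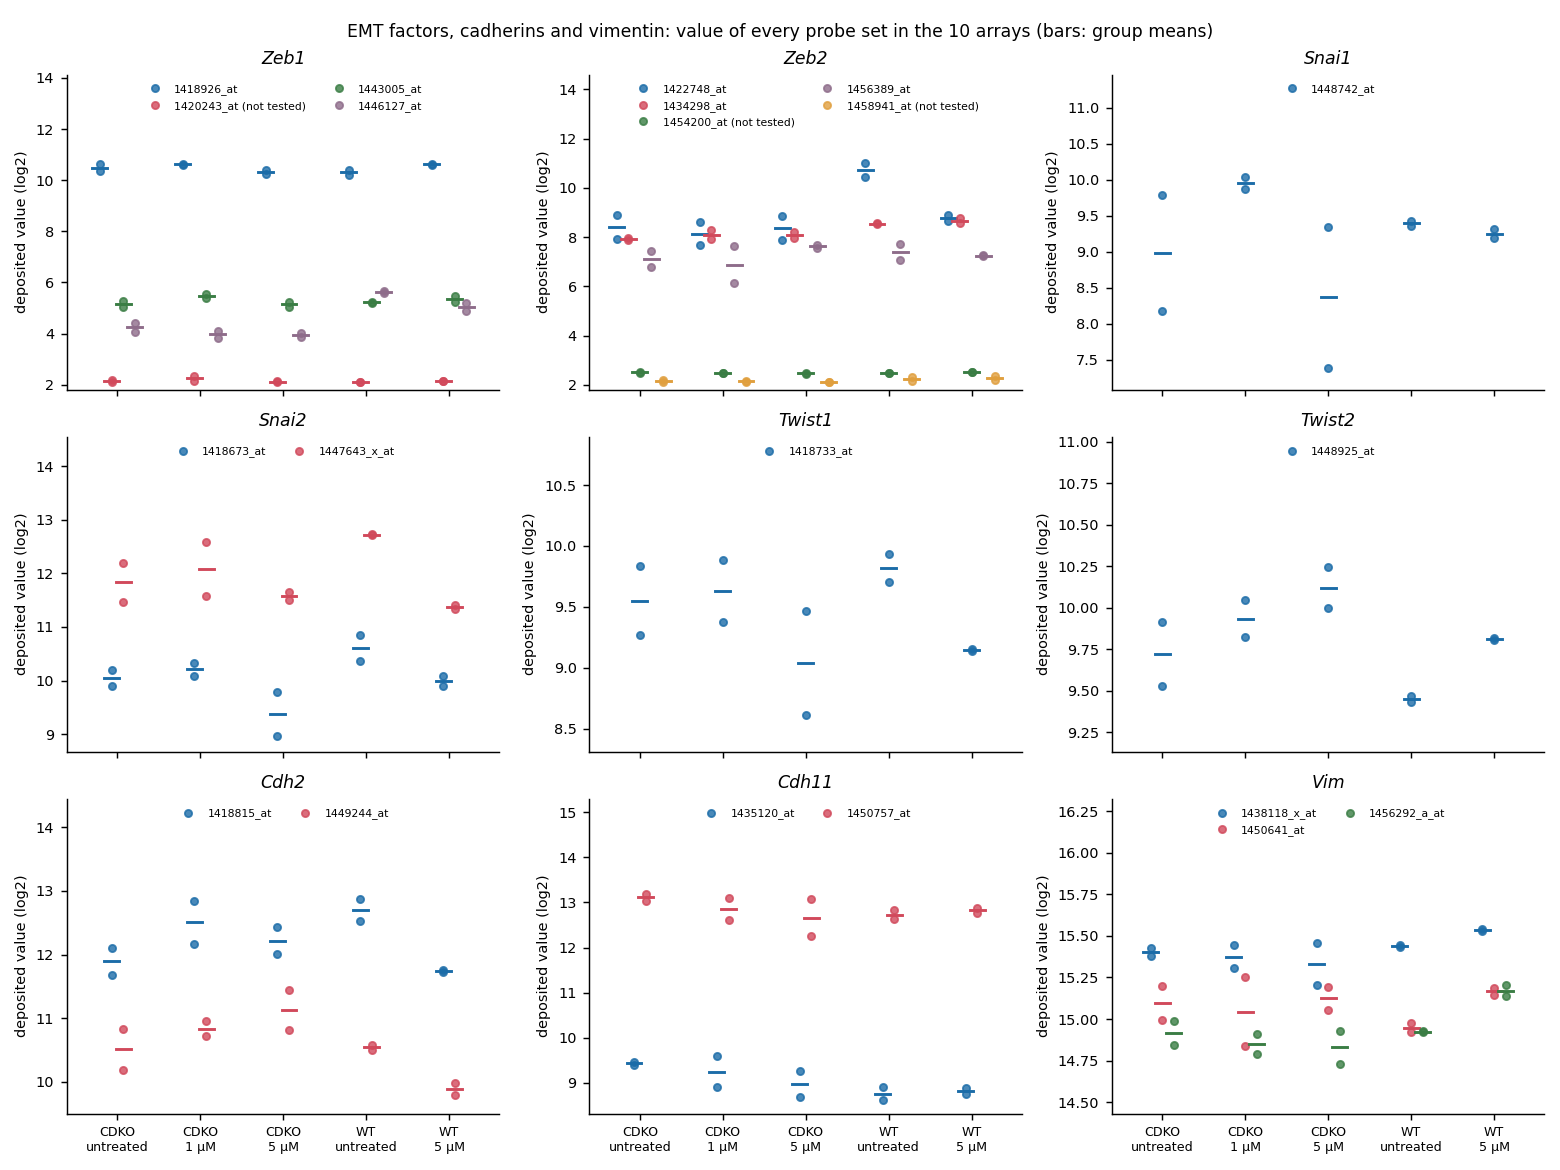
Deposited log2 value (y axis) of the 21 probe sets in the 10 arrays, 1 panel per gene and 1 colour per probe set; dots are arrays and bars are means of 2 arrays. Snai1 parts the replicates of untreated CDKO cells (8.17 and 9.79) and of 5 µM CDKO cells (7.39 and 9.35), and Zeb2 1422748_at is highest in untreated WT cells (10.44 and 10.99).

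In CDKO cells OHT gave no called change in any of these genes. At 5 µM against no treatment, 0 of 18 probe sets passed by limma and 0 had an unadjusted p under 0.05, where 0.145% and 8.89% of all probe sets did. At 1 µM 0 of 18 passed and 0 had such an unadjusted p, with 0% and 3.43% over all. Between 5 µM and 1 µM 0 of 18 passed (0.169% of all), and 1, Snai2 1418673_at, had an unadjusted p under 0.05 (12.9% of all). The median absolute change at 5 µM was 0.31 over the 18 and 0.26 over all tested. Treated and untreated arrays did not overlap for 3 of the 18 on the higher side and 3 on the lower, against 15.7% and 14.9% of all. At 1 µM these counts were 3 and 0 (9.09% and 13.7% of all), and between 5 µM and 1 µM 0 and 4 (20.1% and 15.0%). A p above the threshold does not show that a gene was unaffected; the intervals below give the changes these arrays allow.

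Zeb1 was read by 3 tested probe sets that did not follow each other. On 1418926_at, the brightest, it was 10.36 and 10.63 in untreated CDKO cells, 10.59 and 10.64 at 1 µM, 10.24 and 10.40 at 5 µM, 10.21 and 10.40 in untreated WT cells and 10.65 and 10.61 in treated WT cells. All 10 arrays lay within 0.43 of each other, and the treated WT arrays were above the untreated ones. The change with 5 µM was -0.18 in CDKO cells (95% interval -0.63 to 0.28) and 0.32 in WT cells (-0.14 to 0.77). On 1443005_at the arrays ran from 5.03 to 5.54, with a change of -0.015 (-0.49 to 0.46) at 5 µM in CDKO cells.

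The third Zeb1 probe set, 1446127_at, differed between the lines. It was 4.42 and 4.07 in untreated CDKO cells, 4.10 and 3.84 at 1 µM, 4.01 and 3.88 at 5 µM, 5.59 and 5.65 in untreated WT cells and 4.89 and 5.20 in treated WT cells. All 6 CDKO arrays lay below all 4 WT arrays, close to the filter value of 4. The difference between untreated CDKO and WT cells was -1.38 ± 0.22 (SE; limma adjusted p = 0.0157). That call was lost without CDKO untreated replicate 2 (-1.20, adjusted p = 0.0675), without WT untreated replicate 1 or 2 (0.0903 and 0.115), and in a limma fit of these 4 arrays alone (0.0568). At 5 µM the lines differed by -1.10 ± 0.22 (adjusted p = 0.0635). The 18S control and the Gapdh 3′ minus 5′ difference were high in both untreated WT arrays, and their part in the differences between the untreated lines, for Zeb1 and for the genes below, was not tested. Between the untreated lines the other Zeb1 probe sets differed by 0.19 (1418926_at, adjusted p = 0.601) and -0.064 (1443005_at, adjusted p = 0.886).

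Zeb2, the close relative of Zeb1, was also read by 3 tested probe sets. On 1422748_at it was 8.91 and 7.92 in untreated CDKO cells, 7.68 and 8.60 at 1 µM, 7.87 and 8.85 at 5 µM, 10.44 and 10.99 in untreated WT cells and 8.91 and 8.64 in treated WT cells. The untreated WT arrays were the highest, and the 3 CDKO groups overlapped each other. Untreated CDKO cells were lower than untreated WT cells, by -2.30 ± 0.49 (SE; limma adjusted p = 0.0382). The call was lost without CDKO untreated replicate 2 (-1.81, adjusted p = 0.146), without either untreated WT array (0.128 and 0.228) and without either treated WT array (0.0857 and 0.0860). It was also lost in a fit of the compared groups alone (0.0711), with no filter (0.112), with a replicate block (0.0591) and with a spike-in class block (0.0606).

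In WT cells Zeb2 1422748_at differed by -1.94 ± 0.49 between OHT and no treatment and missed the threshold (adjusted p = 0.0521). In CDKO cells the difference at 5 µM was -0.054 (95% interval -1.21 to 1.10). The test of the difference between these responses gave 1.88 ± 0.70 and did not pass (adjusted p = 0.343). On 1434298_at Zeb2 was 7.95 and 7.86 in untreated CDKO cells, 7.92 and 8.29 at 1 µM, 7.98 and 8.21 at 5 µM, 8.58 and 8.52 in untreated WT cells and 8.56 and 8.79 in treated WT cells. Here too all 6 CDKO arrays lay below all 4 WT arrays, by -0.64 ± 0.21 untreated (adjusted p = 0.122) and -0.58 ± 0.21 at 5 µM (adjusted p = 0.251). On 1456389_at the arrays ran from 6.12 to 7.74; both 5 µM CDKO arrays (7.57 and 7.67) were above both untreated ones (7.44 and 6.80), with a change of 0.50 (-0.66 to 1.65).

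Between the untreated lines 2 of 18 probe sets were called, those on Zeb1 and Zeb2, where 6.58% of all were. Both were lower in CDKO cells (4.28% of all) and 0 higher (2.30%), and 5 of 18 had an unadjusted p under 0.05 (25.0% of all). Between the lines at 5 µM 0 of 18 passed by limma and 3 had an unadjusted p under 0.05, with 1.80% and 15.6% over all. All CDKO arrays lay below all WT arrays for 2 of the 18 (Zeb1 1446127_at and Zeb2 1434298_at) and above for 0, against 4.08% and 4.09% of all. Without overlap 4 of the 18 were higher and 7 lower in untreated CDKO than WT cells (30.9% and 30.4% of all), and 5 and 7 at 5 µM (30.6% and 26.2%).

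**Figure D2:**
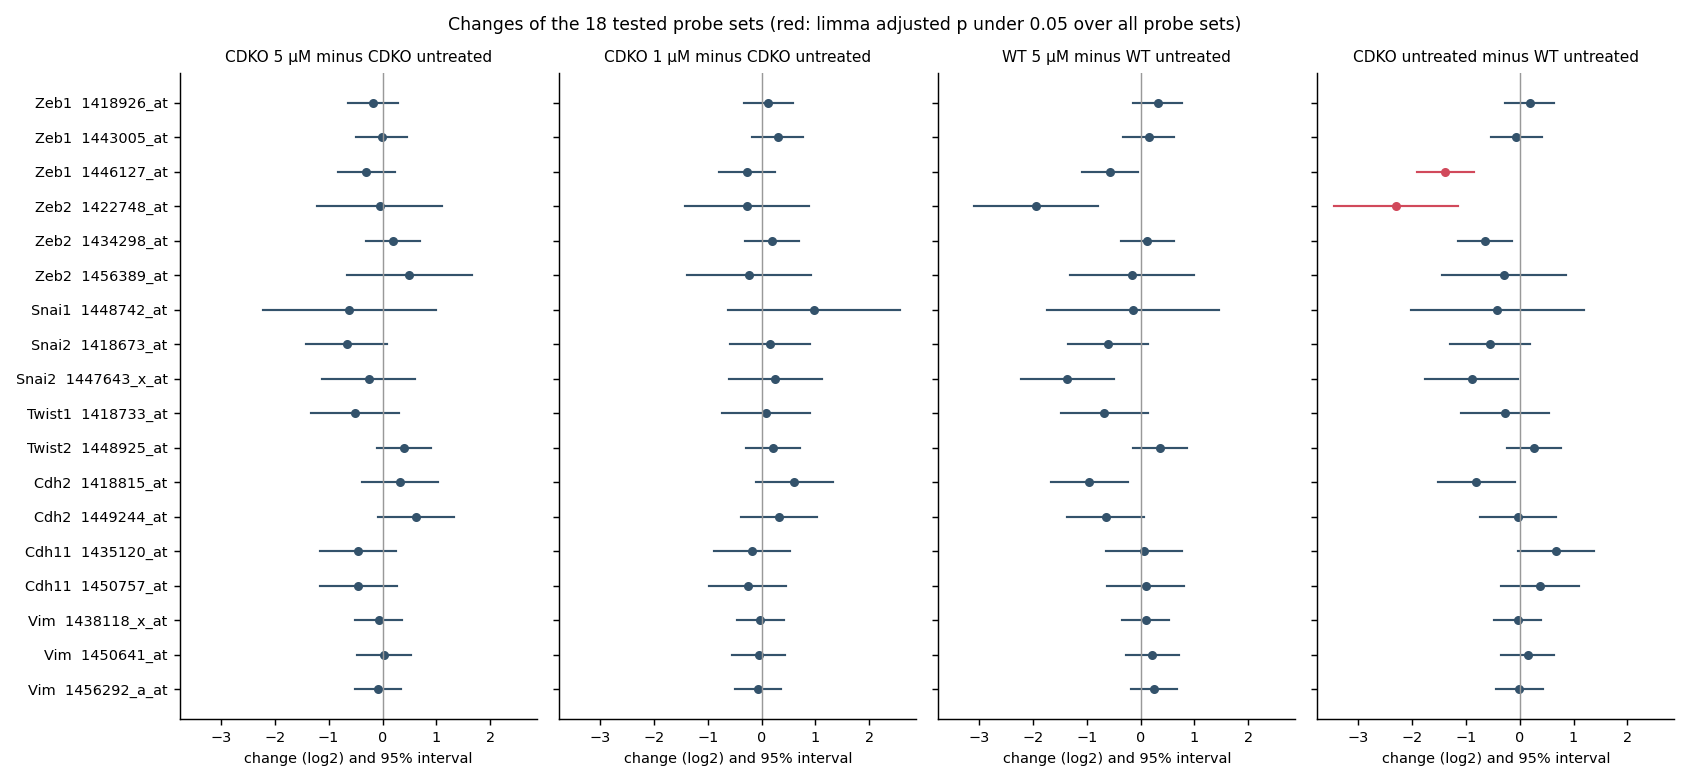
Change on the log2 scale (dot) with its 95% interval (line) for the 18 tested probe sets in 4 comparisons; red marks a limma adjusted p under 0.05 over all probe sets. Zeb1 1446127_at (-1.38) and Zeb2 1422748_at (-2.30) are red in the comparison of the untreated lines, and 0 are red in the 3 comparisons of OHT with no treatment.

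The series' design sets treated CDKO cells against the 3 control groups. Of the 18 probe sets 1 was called (4.08% of all), Zeb1 1446127_at, lower by -1.01 ± 0.14 (SE, 4 and 6 arrays; limma adjusted p = 0.0144). It reached the filter through the 3 control groups alone, with means of 4.24, 5.62 and 5.05 in untreated CDKO, untreated WT and treated WT cells. The treated CDKO means were 3.97 and 3.94, so a lower value was the only direction open to it and nothing is read from this count. Over all probe sets 2.88% were lower and 1.19% higher. With the line as a term the difference was -0.29 (adjusted p = 1.00), and without the untreated WT group it was -0.69 (adjusted p = 0.356). As 2 groups of 4 and 6 arrays the adjusted p was 0.512, with array weights 0.122, with a spike-in class block 0.0702, and without any 1 of the 4 WT arrays 0.0513 to 0.0637. In all, 4 of 18 had an unadjusted p under 0.05 (19.0% of all); the other 3 were Cdh2 1449244_at (0.67 ± 0.20, adjusted p = 0.115), Zeb2 1422748_at (-1.05 ± 0.32, 0.126) and Twist2 1448925_at (0.37 ± 0.14, 0.207).

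Snai1, the Snail repressor known for its early induction in EMT, had the largest SD of all members in untreated and in 5 µM CDKO cells. On its only probe set, 1448742_at, it was 8.17 and 9.79 in untreated CDKO cells, 9.87 and 10.03 at 1 µM, 7.39 and 9.35 at 5 µM, 9.36 and 9.43 in untreated WT cells and 9.31 and 9.19 in treated WT cells. The WT arrays lay close together, while the SD between replicates was 1.14 in untreated and 1.39 in 5 µM CDKO cells. The change with OHT in CDKO cells was -0.62 at 5 µM (95% interval -2.22 to 0.99) and 0.97 at 1 µM (-0.63 to 2.57). Both 5 µM arrays were below both 1 µM arrays, by -1.59 ± 0.68 (adjusted p = 0.389).

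Among the CDKO arrays Snai1 moved with the spike-in class. It was 9.35 to 10.03 in the 4 arrays of the lower class and 7.39 and 8.17 in the 2 of the higher class. The WT arrays, all of the higher class, were at 9.19 to 9.43. For 3 of 18 probe sets (Snai1, Zeb1 1418926_at and Cdh2 1418815_at) the lower class lay above the higher without overlap, and for 0 below, against 12.8% and 16.9% of all. The 5 µM array differed from the untreated array by -0.79 within the higher class and by -0.44 within the lower, with 1 array against 1 each. With the class as a block Snai1 was called lower in CDKO than in WT cells untreated (-1.31, adjusted p = 0.0160), at 5 µM (-1.78, 0.0162) and in the comparison of the series' design (-1.09, 0.0378). Without the block these differences were -0.41, -0.88 and -0.050, and none passed. No WT array is in the lower class, so the block is estimated from CDKO arrays alone, and the part of the class in the Snai1 values was not tested.

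**Figure D3:**
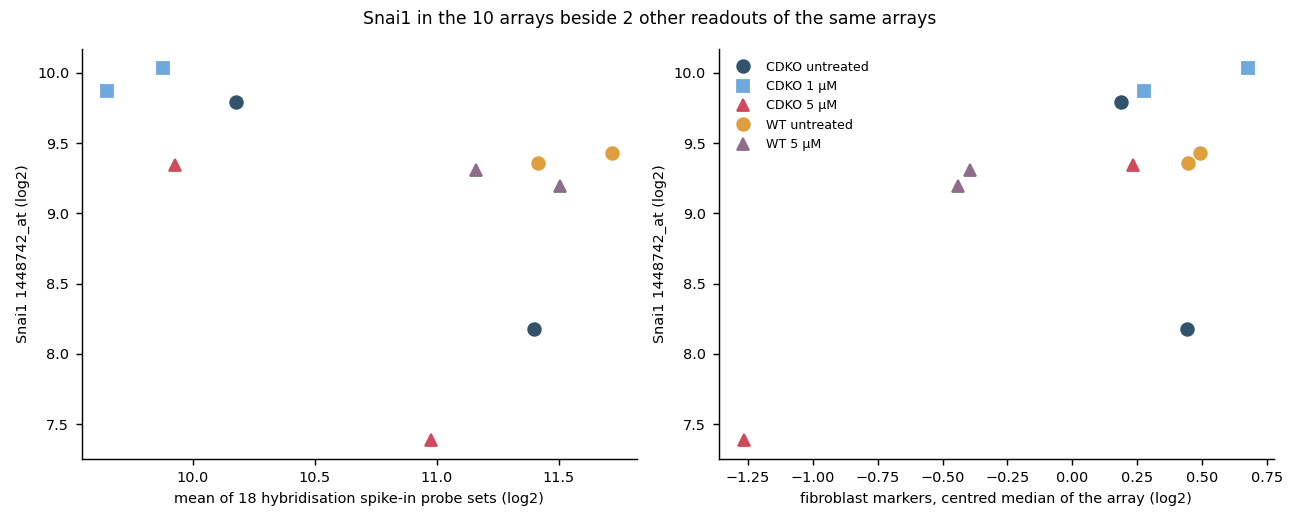
Snai1 value (log2, y axis) in the 10 arrays against the mean of 18 spike-in probe sets (left, log2) and the centred median of 10 fibroblast markers (right, log2); colours and symbols give the 5 groups. The lowest values, 7.39 and 8.17, are CDKO arrays of the higher spike-in class, and the lowest of them is also the array with the lowest fibroblast markers (-1.26).

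Part of the Snai1 promoter is shown because Snail factors bind E-boxes. The letters CACCTG and their reverse complement CAGGTG were searched from 250 bases before to 50 after the start sites that RefSeq (GRCm38.p6) gives for Snai1, Twist1, Twist2, Vim and Zeb2, which are 8 windows of 5 genes. The motif was present in 1 window, that of Snai1, and in 20.2% of all 32851 windows of this length. It begins 126 bases before the start site, on the plus strand, and is in capitals.
Snai1 (chr2:167538057-167538086): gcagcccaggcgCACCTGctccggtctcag
A match describes letters only, and no match says only that these letters are not in that window.

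Snai2 (Slug), the Snail factor of neural crest and mesenchyme, was read by 2 probe sets. On 1418673_at it was 10.20 and 9.90 in untreated CDKO cells, 10.09 and 10.33 at 1 µM, 8.97 and 9.79 at 5 µM, 10.37 and 10.84 in untreated WT cells and 10.09 and 9.90 in treated WT cells. Both 5 µM CDKO arrays lay below both untreated ones, by -0.67 (95% interval -1.42 to 0.080; adjusted p = 0.639), and the lowest value was that of replicate 1, the array with low fibroblast markers. In WT cells the treated arrays were also lower, by -0.61 (-1.36 to 0.14), and the difference between the responses was -0.060 (-1.12 to 1.00). On 1447643_x_at, whose suffix marks probes that may bind other transcripts too, it was 12.19 and 11.47 in untreated CDKO cells, 11.58 and 12.59 at 1 µM, 11.51 and 11.64 at 5 µM, 12.74 and 12.71 in untreated WT cells and 11.33 and 11.40 in treated WT cells. The step in WT cells was -1.36 ± 0.37 and missed the threshold (adjusted p = 0.0599), while the CDKO groups overlapped.

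Twist1, a factor of mesoderm and cranial mesenchyme, was 9.83 and 9.27 in untreated CDKO cells, 9.38 and 9.88 at 1 µM, 8.61 and 9.46 at 5 µM, 9.70 and 9.93 in untreated WT cells and 9.14 and 9.16 in treated WT cells. Its change with 5 µM was -0.51 in CDKO cells (95% interval -1.33 to 0.30), where the arrays overlapped, and -0.67 in WT cells (-1.48 to 0.14), where they did not. Twist2 (Dermo1), its relative in dermal mesenchyme, was 9.53 and 9.91 in untreated CDKO cells, 10.04 and 9.82 at 1 µM, 10.25 and 10.00 at 5 µM, 9.47 and 9.43 in untreated WT cells and 9.81 and 9.82 in treated WT cells. At 5 µM treated arrays lay above untreated ones in both lines, by 0.40 (-0.10 to 0.90) in CDKO and 0.36 (-0.14 to 0.87) in WT cells. At 1 µM the CDKO arrays overlapped the untreated ones. Neither gene passed the limma test in any of the 8 comparisons.

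Over the 10 arrays the values of Twist1 correlated with those of Snai2 (r = 0.88 on 1418673_at and 0.82 on 1447643_x_at) and ran against those of Twist2 (r = -0.78). In deviations from the group means r was 0.91 and 0.71 with Snai2 and -0.93 with Twist2, so the same relations were present between replicates. Over the 10 arrays Zeb2 1422748_at had r = 0.61 with Twist1 and -0.85 with Twist2. The other tested Zeb2 probe sets had weaker values, 0.15 and -0.46 on 1434298_at and 0.10 and -0.21 on 1456389_at. In deviations the values with Twist1 and Twist2 were 0.96 and -0.94 on 1422748_at. They were 0.72 and -0.65 on 1434298_at and 0.51 and -0.64 on 1456389_at. Over the 10 arrays the median r of all 153 pairs of probe sets was 0.057. Probe sets of 1 gene ranged from -0.24 (Zeb1 1418926_at and 1446127_at) to 0.90 (Vim 1438118_x_at and 1456292_a_at). These are descriptions of 10 arrays that share their processing and, in pairs, their group.

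**Figure D4:**
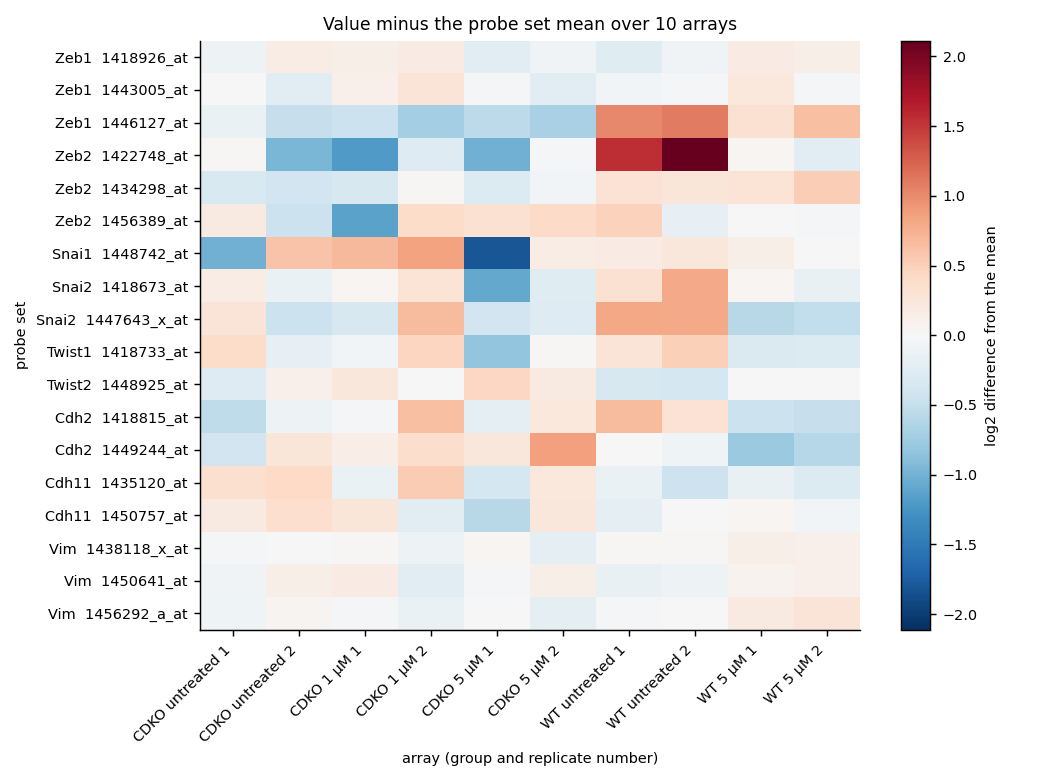
Log2 value minus the mean of the probe set over 10 arrays (colour) for the 18 tested probe sets (rows) in each array (columns, group and replicate number). CDKO 5 µM replicate 1 is low for Snai1, Snai2 1418673_at and Twist1 (7.39, 8.97 and 8.61, each the lowest of its 10 arrays), and untreated WT arrays are high for Zeb2 1422748_at and Zeb1 1446127_at.

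Cdh2, the classical cadherin of mesenchymal and neural cells, was read by 2 probe sets. On 1418815_at it was 11.68 and 12.11 in untreated CDKO cells, 12.17 and 12.84 at 1 µM, 12.01 and 12.43 at 5 µM, 12.87 and 12.52 in untreated WT cells and 11.76 and 11.73 in treated WT cells. On 1449244_at it was 10.18 and 10.83 in untreated CDKO cells, 10.71 and 10.96 at 1 µM, 10.81 and 11.45 at 5 µM, 10.58 and 10.49 in untreated WT cells and 9.80 and 9.98 in treated WT cells. In WT cells both probe sets were lower in both treated arrays, by -0.95 ± 0.30 (adjusted p = 0.0864) and -0.65 ± 0.30 (0.192). In CDKO cells at 5 µM the differences were positive, 0.32 (95% interval -0.39 to 1.03) and 0.62 (-0.085 to 1.33), and the arrays overlapped. The difference between the lines in response was 1.28 ± 0.43 and 1.27 ± 0.43, and neither passed (adjusted p = 0.304 and 0.305). At 5 µM both CDKO arrays were above both WT arrays on both probe sets, by 0.48 ± 0.30 (adjusted p = 0.535) and 1.24 ± 0.30 (0.103). For the difference in response 0 of 18 member probe sets passed by limma (0.348% of all), and 3, both of Cdh2 and Zeb2 1422748_at, had an unadjusted p under 0.05 (12.5% of all).

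Cdh11, a cadherin of bone-forming and other mesenchymal cells, did not pass in any comparison. On 1450757_at the arrays ran from 12.25 to 13.20 and on 1435120_at from 8.61 to 9.58. The change at 5 µM in CDKO cells was -0.45 on 1450757_at (95% interval -1.16 to 0.27), with overlap, and -0.45 on 1435120_at (-1.16 to 0.25), without. In WT cells it was 0.092 and 0.059. Vim, the intermediate filament of mesenchymal cells, ran from 14.84 to 15.25 on 1450641_at, 14.73 to 15.21 on 1456292_a_at and 15.21 to 15.54 on 1438118_x_at. Over the 8 comparisons its changes lay between -0.34 and 0.25, and none passed.

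In WT cells, 5 µM OHT against no treatment gave 0 of 18 member probe sets by limma, where 9.23% of all passed. An unadjusted p under 0.05 was found for 4 (30.6% of all): Zeb2 1422748_at, Snai2 1447643_x_at, Cdh2 1418815_at and Zeb1 1446127_at, each lower with OHT. In a limma fit of the 4 WT arrays alone 7 of 18 passed, where 56.5% of all did. They were Snai2 1447643_x_at (adjusted p = 0.00165), Zeb2 1422748_at (0.00589), Cdh2 1418815_at and 1449244_at (0.0102 and 0.0110), Twist1 (0.0118) and Zeb1 1446127_at (0.0305), lower, and Twist2 (0.0198), higher. With array weights 10 of 18 passed (60.2% of all). The count was 3 without CDKO 1 µM replicate 1 or 2 and 1 without CDKO untreated replicate 1 or 2. Treated arrays lay above untreated ones without overlap for 6 of 18 and below for 8, against 39.1% and 43.9% of all. The 18S control and the Gapdh 3′ minus 5′ difference were high in both untreated WT arrays and in neither treated one, so they cannot be told apart from treatment here.

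Cdh1, Krt8 and Epcam, epithelial genes known to be lost in EMT, were near background in every group except untreated WT cells. Of 20 epithelial junction and keratin genes 9 were tested and 11 stayed under the filter (Ocln, Cldn3, Cldn4, Cldn7, Tjp3, Crb3, Marveld3, Esrp1, Grhl2, Ovol1 and Ovol2). Cdh1 was 6.56 ± 0.31 (SD, n = 2) in untreated WT cells and 3.14 to 3.20 in the means of the other 4 groups, the keratin Krt8 was 8.81 ± 0.32 against 2.93 to 3.06, and the adhesion molecule Epcam was 4.09 ± 0.53 against 2.95 to 2.99. These 3 reached the filter through untreated WT cells alone, so a fall from that group was the only direction open to them. The adjusted p-values below do not test that direction. A count of changed genes among the 9 would be set by the filter and is not given. In WT cells with OHT Krt8 fell by -5.84 ± 0.21 (limma adjusted p = 4.07e-05), Cdh1 by -3.37 ± 0.21 (0.000617) and Epcam by -1.11 ± 0.27 (0.0445; lost in 10 of 17 alternatives, with an adjusted p of up to 0.264). Krt18, Krt19 and Jup, named with Esrp2 and Cdh3 after their values were seen, were above the filter value in all 5 groups. The cadherin Cdh3 reached it in untreated and 1 µM CDKO cells and in no other group. The group means of the keratins Krt18 and Krt19 ran from 7.17 to 9.52 and from 6.04 to 7.48, and those of Jup (plakoglobin) from 9.26 to 10.81. Esrp2, an epithelial splicing regulator, was 2.89 in untreated and 4.61 in treated WT cells and 4.30 to 5.11 in the CDKO groups, and did not pass in WT cells. In CDKO cells Krt8 (3.06 untreated and 2.93 at 5 µM), Cdh1 (3.20 and 3.14) and Epcam (2.99 and 2.95) were at background in both groups, so they could not show a fall. The lower values of Krt8, Cdh1 and Epcam are at background, so their changes are no ratios of transcript amounts.

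Markers of other cell types also differed between the arrays. The centred median of the skeletal muscle markers was 2.47 and 2.64 in the untreated WT arrays and -0.83 to -0.47 in the other 8 arrays, over the 6 tested of 11 listed. Of these 6, 4 (Actc1, Myl1, Myh3 and Tnni1) reached the filter through untreated WT cells alone, and Myod1, Myog and Myf5 were under it. The epithelial markers (6 of 9 tested) were at 1.28 and 0.89 in the untreated WT arrays and at -0.89 to -0.12 elsewhere. Of these 6, Krt8, Cdh1 and Epcam also reached the filter through untreated WT cells alone, so the filter favours a high median there. Macrophage and leukocyte markers (14 of 15 tested) were at 1.13 to 1.25 in WT arrays, 0.021 and 0.83 in CDKO arrays of the higher spike-in class and -1.54 to -1.01 in those of the lower. Of 10 endothelial markers 8 were under the filter, Pecam1 and Cdh5 among them. In bulk RNA fewer cells of a type and less RNA per cell cannot be told apart, and the part of these cell types in the values of the EMT factors was not tested.

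**Figure D5:**
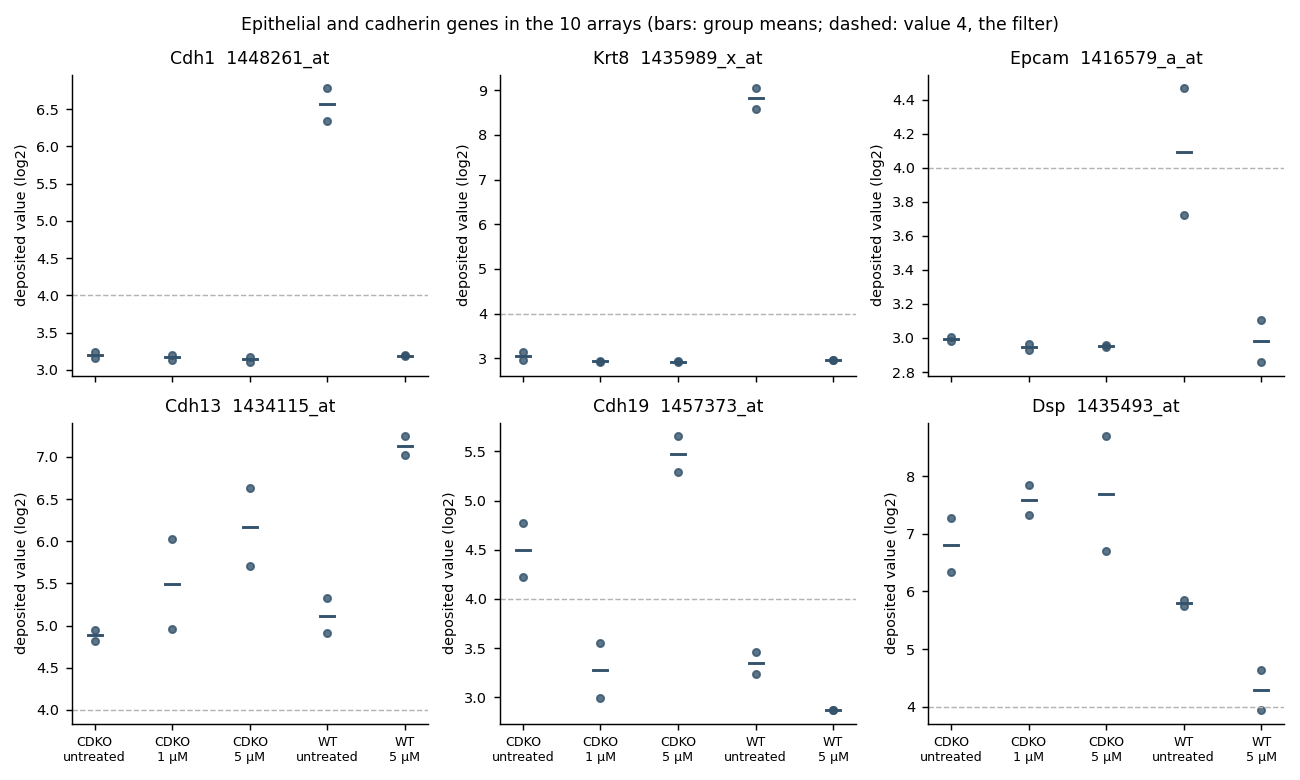
Deposited log2 values (dots, 10 arrays; bars, group means) of Cdh1, Krt8, Epcam, Cdh13, Cdh19 and Dsp in the 5 groups, with the filter value of 4 dashed. The group means of Cdh1 and Krt8 are above 4 in untreated WT cells (6.56 and 8.81) and at 3.20 or lower elsewhere, while Cdh13 is highest in treated WT cells (7.13) and Cdh19 in 5 µM CDKO cells (5.47).

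Of 16 other cadherins 15 were on the array and 4 were tested. Cdh13 (T-cadherin, held to the membrane by a lipid anchor) rose in WT cells with OHT by 2.02 ± 0.42 (limma adjusted p = 0.0325; 3.46% of 10632 genes rose), from 5.12 ± 0.29 to 7.13 ± 0.16 (SD, n = 2). In CDKO cells it was 4.88 untreated, 5.49 at 1 µM and 6.17 at 5 µM and did not pass. Cdh19 was higher in CDKO than in WT cells at 5 µM by 2.60 ± 0.29 (adjusted p = 0.00924), with 5.47 against 2.87, the latter at background; 1.46% of genes were called there, and the call was lost in 3 of 18 alternatives, with an adjusted p of up to 0.122. At 5 µM against untreated CDKO cells the 4 tested (Cdh6, Cdh10, Cdh13 and Cdh19, the first pair named after their values were seen) had changes of 0.87 to 2.04, and 0 passed by limma (0.141% of genes), while 4 had an unadjusted p under 0.05 (7.40% of genes). Cdh6 reached the filter through the treated CDKO groups alone and Cdh19 through untreated and 5 µM CDKO cells alone, so nothing is read from that count. The filter thus took Cdh19 in on the side where it was high in the call between the lines. At 1 µM Cdh19 was 3.28 in CDKO cells, against 3.35 in untreated WT cells. Dsp, which encodes the desmosome protein desmoplakin, was higher in treated CDKO cells than in controls by 2.01 ± 0.41 (adjusted p = 0.0437; 2.45% of genes, 1.13% higher and 1.32% lower): 7.59 at 1 µM and 7.70 at 5 µM, against 6.81 in untreated CDKO cells and 5.80 and 4.29 in untreated and treated WT cells. The call was lost in 15 of 21 alternatives, with an adjusted p of up to 1.00; with the line as a term the difference was 0.83. Within CDKO cells 5 µM replicate 2 (6.70) lay below untreated replicate 2 (7.28).

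Of 12 catenins and other cadherin partners 10 were tested and 0 passed by limma in any of the 8 comparisons. Over all genes the share called ran from 0% (1 µM in CDKO cells) to 8.24% (OHT in WT cells), so a count of 0 among 10 says little. The median change of the list was 0.18 at 5 µM in CDKO and -0.18 in WT cells, and over all genes it was -0.0081 and -0.093. Of 20 co-factors of the EMT factors 19 were tested. Ezh2, a histone methyltransferase, fell in WT cells with OHT by -1.92 ± 0.36 (adjusted p = 0.0230; 1 of 19, against 8.24% of genes) and was lower by -1.60 ± 0.36 in CDKO than WT cells without treatment (0.0422; 4.58% of genes, 2.64% lower and 1.94% higher). Of 16 tested mesenchymal effector genes Pdgfra, a growth factor receptor of fibroblasts, fell in WT cells by -2.37 ± 0.46 (0.0263), and the median change of the list was -0.093 at 5 µM in CDKO and -0.076 in WT cells. Of 7 tested intermediate filament partners of vimentin Synm (synemin) fell in WT cells by -2.00 ± 0.19 (0.00306), from 5.55 to 3.55. Synm reached the filter through untreated WT cells alone, so a fall was the only direction open to it. The WT calls of Cdh13, Ezh2, Pdgfra and Jag1 (described next) were lost without any 1 of the 4 WT arrays (adjusted p of 0.128 to 0.208, 0.132 to 0.167, 0.134 to 0.177 and 0.0528 to 0.0789), that of Synm without WT 5 µM replicate 2 (0.0594), and the Ezh2 call between the lines was lost in 11 of 19 alternatives, with an adjusted p of up to 0.207. In CDKO cells 0 genes of these lists passed at 1 µM or 5 µM against no treatment, where 0% and 0.141% of all genes did.

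Other reported targets of the miR-200 family are a further readout beside Zeb1 and Zeb2. All 16 listed were tested, with a median change of -0.071 at 5 µM and 0.031 at 1 µM in CDKO cells, where 0 passed by limma (0.141% and 0% of genes) and 2 and 0 had an unadjusted p under 0.05 (7.40% and 2.29% of genes). In WT cells Jag1, a Notch ligand, fell by -2.77 ± 0.33 (adjusted p = 0.00640), 1 of 16, where 8.24% of genes were called and 4.78% fell, with a list median of -0.18 (-0.093 over all genes). In CDKO cells Jag1 was 10.77 ± 0.13 untreated and 9.73 ± 0.18 at 5 µM (SD, n = 2) and did not pass.

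The genes most like each member over the 10 arrays were sought among 10632 genes, on the brightest probe set of each. For Snai1 they were Dtx3 (r = 0.995), Tgfb1i1 (0.987) and Kctd17 (0.979), and for Snai2 Alg10b (r = 0.994), Pbx3 (0.989) and Atad2 (0.983). For Twist1 they were Bvht (r = 0.990), Lama4 (0.967) and Dnajb11 (0.965), and for Twist2 Plk2 (r = 0.971), Ten1 (0.961) and Il18rap (0.958). For Zeb1 they were Eral1 (r = 0.945), Cpt1c (0.918) and Fkbp11 (0.881), and for Zeb2 Dnajc3 (r = 0.975), Cnot6l (0.974) and Abhd17b (0.973). The nearest genes to Cdh2 were Prkce (r = 0.970), Lhfpl2 (0.962) and Ptprf (0.962), and to Cdh11 Bcl2l2 (r = 0.971), Ahcyl1 (0.910) and Sec24b (0.898). The nearest to Vim were Nde1 (r = 0.924), Ccr2 (0.920) and Snrpc (0.901). With 10 arrays in 5 groups, coefficients picked from so many genes describe likeness only.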

How the data were processed

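Labelled RNA was hybridised to Affymetrix arrays. The authors deposited 1 log2 value for each probe set on each array; the submitters' processing notes name GCRMA, without a version. The sources used here give neither the chip definition nor any filter. The platform annotation pairs 34958 probe sets with 1 symbol, 932 with several and 9211 with none; no member is among those with several. Group means of the 5 groups were fitted with limma 3.58.1 (lmFit and eBayes, R 4.3.3) over 20681 probe sets whose highest group mean reached 4, with 64 control probe sets left out and 5 residual degrees of freedom. Tests are two-sided, with Benjamini-Hochberg adjustment over all probe sets. Lists take the brightest tested probe set of each gene (10632 genes). Genes are named if they are members, if they are past the threshold in a list (up to 4 per list and comparison by size), or if they are among the 3 most like a member (clone and model names passed over), and so is Dicer1. Members, lists and tests were chosen with earlier results of these data known. In data simulated for 5 µM against untreated CDKO cells over 20681 probe sets, changes of 1, 2, 3 and 4 on the log2 scale, in 50 probe sets each, were recovered in 10%, 34%, 68% and 90%, with 3 false calls. The simulated noise was independent between arrays, with 1 spread per probe set for all 5 groups. In the real arrays the median SD over all tested was 0.31 and 0.29 in untreated and 5 µM CDKO cells. It was 0.099 and 0.072 in untreated and treated WT cells. Recovery and false calls among the real CDKO arrays may therefore be less favourable. Alternatives tried were a filter at 6 or none, a prior that was trended and robust, centred or quantile-normalized arrays, array weights, a replicate block, a spike-in class block, the compared groups alone, other models of the series' comparison, and leaving out each array. Calls of listed genes and of Dicer1 were refitted under the same alternatives after their values were seen.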

Additional observations from a re-analysis of the deposited data

How the results depend on the processing

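For treated CDKO cells against controls 1 member probe set was called; the count was 0 with a filter at 6, with array weights, as 2 groups, with line as a term and without the untreated WT group, 1 with a replicate block, and 0 to 1 when each array was left out. With a spike-in class block it was 1, Snai1 in place of Zeb1. For untreated CDKO against WT cells it was 2; it was 0 with the compared groups alone, 1 with no filter, with a filter at 6 and with a replicate block, and 0 to 2 when each array was left out. For OHT in WT cells it was 0; it was 10 with array weights (60.2% of all probe sets), 7 with the compared groups alone (56.5%), 2 with a trended robust prior (9.59%), 1 after quantile normalization (10.1%), 0 with a replicate block and 0 to 3 when each array was left out. For CDKO against WT cells at 5 µM it was 0, and 1 with a spike-in class block (4.56%). In the other 4 comparisons it was 0 under each alternative run. The filter at 6 leaves Zeb1 1446127_at untested; the cause of the other moves was not tested.

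Of 144 changes of single probe sets, 58, none of them called, turned sign in at least 1 alternative; over those turns the median size of the main value was 0.060 and the largest 0.88, for Snai1 in CDKO against WT cells at 5 µM, which ran from -1.86 to 0.095 when each array was left out. Replicate numbers were not treated as a pairing: the differences between replicates of untreated CDKO cells correlated at -0.45 with those at 1 µM and 0.43 with those at 5 µM. Signal near background limits Zeb1 1446127_at.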

Other observations

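Cdh19, a cadherin known from Schwann cell precursors, and S100b, a calcium-binding protein of glia, were among the neural and glial markers (6 tested of 10 listed). At 5 µM they differed between the lines in opposite directions. Between the untreated lines the 6 tested markers differed by -3.89 to 1.36, with a median of 0.13. There 2 were called, both lower in CDKO cells, against 4.58% of all genes called and 2.64% called lower. At 5 µM the range was -3.19 to 2.60 and the median 0.60, with 2 called (1.46% of all genes). S100b was lower in CDKO cells by -3.89 ± 0.51 untreated (limma, SE; adjusted p = 0.00767) and by -3.19 ± 0.51 at 5 µM (adjusted p = 0.0317). Its group means were 2.54, 4.10 and 3.37 in untreated, 1 µM and 5 µM CDKO cells and 6.44 and 6.56 in untreated and treated WT cells. In both comparisons S100b was thus under the filter in CDKO cells and reached it in WT cells. A lower value in CDKO cells was the side the filter favours, and the differences are no ratios of transcript amounts. Sox2, a factor of neural progenitors, was 3.31 in untreated CDKO and 4.60 in untreated WT cells (-1.28 ± 0.28, adjusted p = 0.0410; lost in 9 of 18 alternatives, with an adjusted p of up to 0.204), and reached the filter through untreated WT cells alone. The S100b calls were lost without either untreated WT array in the untreated comparison (0.0571 and 0.0582) and in 8 of 19 alternatives at 5 µM. Emcn (endomucin), 1 of 2 tested endothelial markers, differed by 1.86 ± 0.26 between the untreated lines and was higher in CDKO cells (limma adjusted p = 0.00940). Of all genes 1.94% were called higher there, and the Emcn call was lost in 3 of 19 alternatives. Egfl7, the other tested endothelial marker, differed by -0.23 there and did not pass. The Emcn means were 6.09 in untreated CDKO and 4.23 in untreated WT cells. At 5 µM they were close, 5.19 in CDKO and 5.25 in WT cells.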
